A study of Mus musculus with 15 samples.

Results

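The 50 genes described here encode proteins that carry a cell through mitosis and cytokinesis, the stages in which copied chromosomes are separated and the cell is cut into daughters. They were chosen by symbol from a list of mitotic cyclins and kinases, spindle, kinetochore, condensin and cytokinesis genes. All 50 were found once among the 47069 genes of a deposited count table. The rule itself used no measured value, but the members were chosen with earlier results of these data known. The table held mRNA sequencing of the left ventricle of C57BL/6 mice in 15 libraries, with 5 biological replicates in each of 3 groups. Mice of the rHCI group had a myocardial infarct and, 7 days on, received rHCI, a hydrogel of recombinant human collagen type I, into the heart muscle. Mice of the PBS group had the infarct and, 7 days on, the same kind of injection with saline, and in both groups the heart was perfused with saline and the ventricle frozen 2 days later. In the Sham group mice had a sham operation and no treatment, and were taken at 10 weeks of age to match. Sham mice had neither infarct nor injection, so the effects of both cannot be told apart against Sham. RNA came from powder ground from the ventricle, which mixes scar, border and remaining muscle. Libraries are named by group and by the number in their titles, and values per library are listed in the order rHCI 1, 3, 7, 11 and 13, PBS 2, 6, 9, 12 and 14, and Sham 16, 17, 18, 19 and 20.

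Entry into mitosis is driven by the kinase Cdk1 bound to a B-type cyclin, and exit follows when the anaphase-promoting complex, a ubiquitin ligase, marks the cyclins and securin for destruction. Most genes of this machinery are transcribed in the G2 and M phases of cycling cells and are shut off in cells that have left the cycle, through a repressor complex named DREAM, so their mRNA is widely used as a sign of dividing cells. In the adult mouse heart most muscle cells no longer divide, and after an infarct the dividing cells are mainly known to be fibroblasts, immune cells and endothelial cells. Heart muscle cells that do enter mitosis often stop before cytokinesis and become polyploid or binucleate.

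Total counts were 32978702 to 103356830 per library, of which 12817 to 46735 fell on the 50 genes. The gene with the fewest counts, Cdc25c, still had 3 counts in its lowest library, and none of the 50 genes was at 0 in any library. All 8 heart muscle markers checked were present in every library, with a summed level of 39400 to 57500 CPM (counts per gene relative to the library total after TMM scaling) in rHCI libraries, 38000 to 52700 CPM in PBS libraries and 67800 to 76300 CPM in Sham libraries. Summed fibroblast markers (7 genes) were at 7060 to 11900 CPM in rHCI libraries, 7900 to 11600 CPM in PBS libraries and 919 to 1100 CPM in Sham libraries. Summed macrophage markers (7 genes) were at 334 to 410 CPM in rHCI libraries, 331 to 436 CPM in PBS libraries and 115 to 147 CPM in Sham libraries. Summed endothelial markers (7 genes) overlapped between all groups, at 903 to 1130 CPM in rHCI libraries, 940 to 1080 CPM in PBS libraries and 930 to 1040 CPM in Sham libraries. Mitochondrially encoded genes took 9.77% to 14.5% of counts in rHCI libraries, 10.1% to 12.5% in PBS libraries and 15.3% to 17.2% in Sham libraries. The sample descriptions carry a number taken here for that of a sequencing run: 12 libraries had one number, PBS 6 another, and rHCI 1 and Sham 19 a further one in common.

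PBS hearts were first set against Sham hearts, for the difference in mitotic genes between an infarcted, saline-injected ventricle and one without an infarct. All 50 genes passed the test, 47 higher and 3 lower in PBS hearts, at an adjusted p under 0.05 (quasi-likelihood test of edgeR, two-sided, adjusted by Benjamini-Hochberg over 16207 genes, 10 libraries). Across all genes tested 71.4% passed, 36.5% higher and 34.9% lower. The median log2 fold change of the 50 genes was 2.52, against -0.009 over all genes tested. A rise of more than 2-fold was found for 44 of the 50 genes and for 16.5% of all genes, and a rise of more than 4-fold for 37 of the 50 genes and for 6.55% of all genes. PBS and Sham libraries did not overlap for 48 of the 50 genes, 46 of them higher in PBS, against 58.7% of all genes without overlap and 31.5% higher without overlap. In bulk tissue a change in the number of cells of a type and a change in RNA per cell cannot be told apart, and this holds for every value given here.

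**Figure D1:**
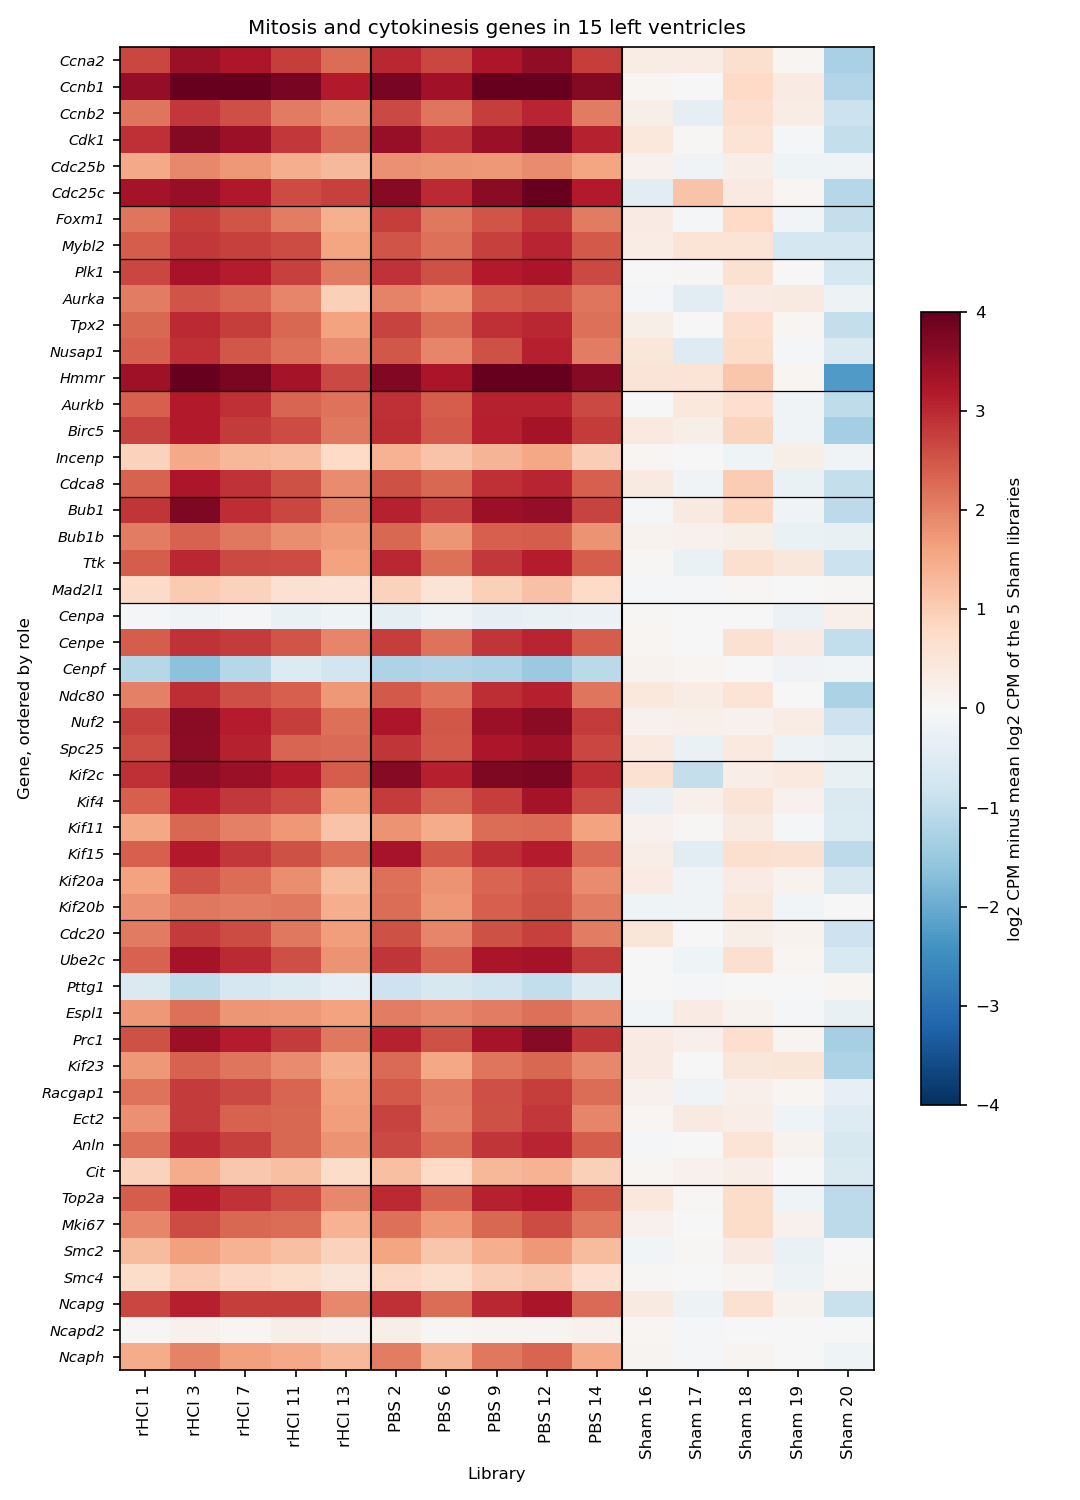
Level of each of the 50 genes (down the page, ordered by role, lines between roles) in each of the 15 libraries (rHCI, PBS and Sham from left to right), as log2 CPM minus the mean log2 CPM of the 5 Sham libraries, red higher and blue lower. All 10 infarcted libraries are red for 46 of the genes, Cenpf and Pttg1 are blue in them, and Cenpa and Ncapd2 are close to white.

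Mki67, which encodes the Ki-67 protein that coats mitotic chromosomes and is the usual stain for dividing cells, had 20.4, 32.1, 25.6, 24.8 and 13.8 CPM in rHCI libraries, 24.1, 17.4, 25.6, 31.7 and 22.7 CPM in PBS libraries, and 5.9, 5.14, 8.64, 5.83 and 2.53 CPM in Sham libraries. Every infarcted library lay above the highest Sham library. Its log2 fold change was 2.13 ± 0.24 (SE) for PBS against Sham, or 4.38-fold, with an adjusted p of 4.92e-06 by edgeR. Top2a, the topoisomerase that untangles sister chromatids, had 17.4, 29.1, 24.0, 19.6 and 12.3 CPM in rHCI libraries, 25.4, 16.3, 27.0, 30.0 and 17.6 CPM in PBS libraries, and 4.32, 3.31, 5.42, 2.88 and 1.57 CPM in Sham libraries. The groups did not overlap, and PBS hearts stood 6.72-fold above Sham hearts (2.75 ± 0.27 on the log2 scale). Ccnb1, the cyclin that activates Cdk1 for entry into mitosis, had 3.81, 6.43, 5.73, 4.59 and 2.99 CPM in rHCI libraries, 4.61, 3.37, 5.89, 7.26 and 4.21 CPM in PBS libraries, and 0.352, 0.327, 0.571, 0.412 and 0.147 CPM in Sham libraries. Its rise of 3.86 ± 0.31 on the log2 scale, 14.6-fold, was the largest of the 50, from a Sham level under 1 CPM in every library. Cdk1, the kinase of the mitotic switch, had 5.16, 8.62, 7.24, 4.83 and 3.21 CPM in rHCI libraries, 7.48, 5.03, 7.43, 9.21 and 5.71 CPM in PBS libraries, and 0.894, 0.694, 0.99, 0.648 and 0.35 CPM in Sham libraries. It was 9.9-fold higher in PBS hearts (3.31 ± 0.25 on the log2 scale, adjusted p 8.25e-08 by edgeR), with no overlap.

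**Figure D2:**
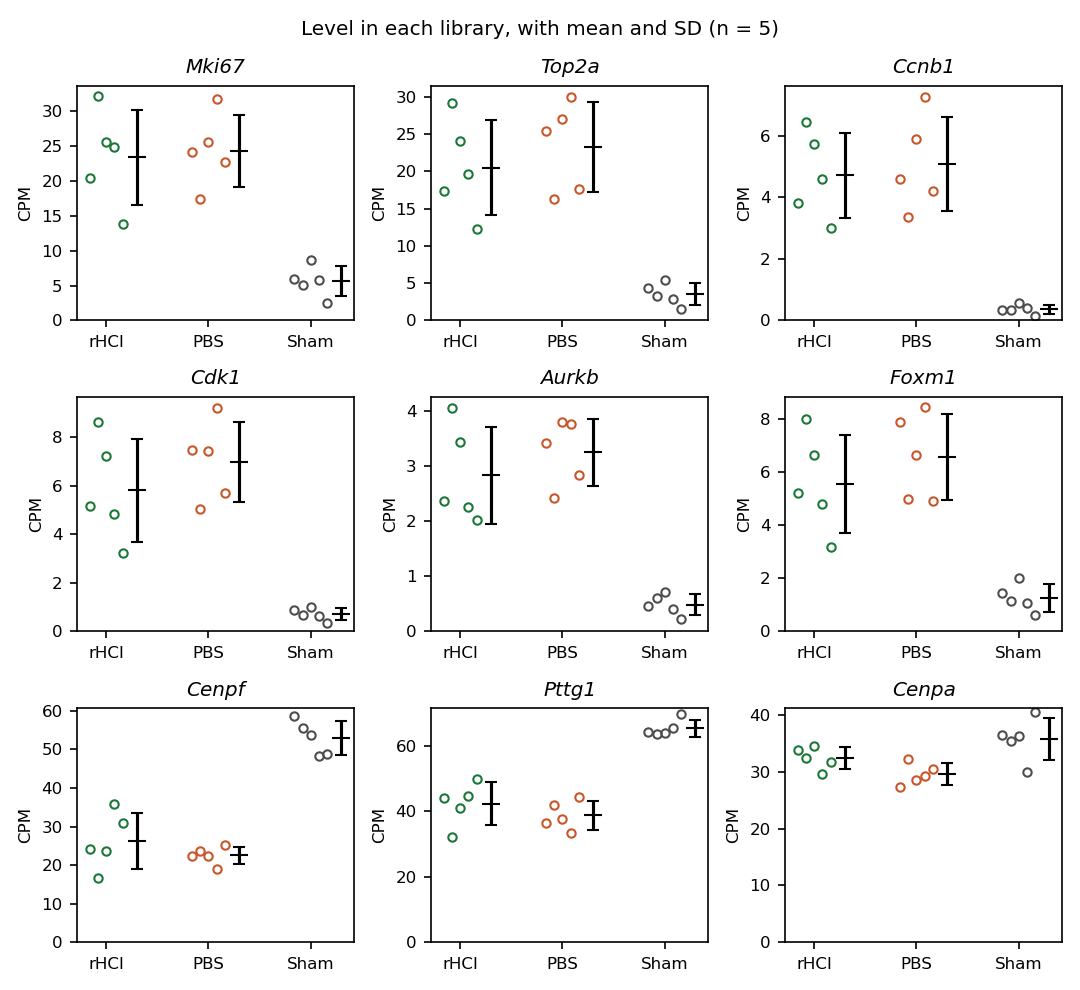
CPM in each library (open points) with the mean and SD of each group of 5 (black bars, linear axes from 0) for 9 genes, groups from left to right rHCI, PBS and Sham. In the upper 6 panels, Mki67 to Foxm1, every infarcted library lies above every Sham library, while Cenpf and Pttg1 lie below in all infarcted libraries and Cenpa overlaps.

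Genes that rise in G2 and M phase tend to carry a short promoter element named CHR (cell cycle genes homology region), the docking site of the DREAM repressor and of the activating complex with B-Myb, often with upstream CCAAT boxes bound by NF-Y. These letters were therefore searched in the RefSeq promoters of GRCm38.p6, 250 bases before to 50 after the start of a gene, for the 42 genes with an entry (44 promoters, since Ect2 and Prc1 have 2 each). Entries were not matched for Cdc25c, Foxm1, Incenp, Smc4, Ccna2, Tpx2, Aurkb and Kif20a. The CHR letters searched were TTTGAA, the variant TTCGAA and the variant TTTAAA, on both strands. A CHR match shared a base with a CCAAT match in 1 of the 44 promoters. The CHR letters were in 84.1% of the 44 promoters, against 28.8% of all promoters in the table and 26.5% of those of protein-coding genes. CCAAT on either strand was in 70.5% of the 44 promoters, against 37.4% of all. Both were in 70.5% of the 44 promoters and in 11.3% of all, and CHR letters within the last 100 bases were in 75.0% of the 44 and in 8.62% of all. A match describes letters only and shows no binding. The RefSeq start lay within 50 bases of the gene start of GENCODE M21 for 34 of the 44 windows, and 5 windows (those of Cdca8, Cit, Kif2c, Kif4 and Pttg1) lay wholly inside the gene as M21 draws it. Printing was planned for the promoters of Mki67, Top2a, Ccnb1, Cdk1, Aurkb and Foxm1, of which Aurkb and Foxm1 had no matched entry. The promoter of Cenpf is printed as well because Cenpf was lower in infarcted hearts. Capitals mark the CHR letters and CCAAT or its reverse complement ATTGG.
Ccnb1 (chr13:100786437-100786736, minus strand): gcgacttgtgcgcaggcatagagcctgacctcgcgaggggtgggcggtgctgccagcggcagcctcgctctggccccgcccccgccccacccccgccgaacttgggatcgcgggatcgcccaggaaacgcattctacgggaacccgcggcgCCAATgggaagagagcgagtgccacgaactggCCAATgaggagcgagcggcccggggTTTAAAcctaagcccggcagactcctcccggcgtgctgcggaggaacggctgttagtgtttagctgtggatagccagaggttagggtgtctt
Cdk1 (chr10:69352863-69353162, minus strand): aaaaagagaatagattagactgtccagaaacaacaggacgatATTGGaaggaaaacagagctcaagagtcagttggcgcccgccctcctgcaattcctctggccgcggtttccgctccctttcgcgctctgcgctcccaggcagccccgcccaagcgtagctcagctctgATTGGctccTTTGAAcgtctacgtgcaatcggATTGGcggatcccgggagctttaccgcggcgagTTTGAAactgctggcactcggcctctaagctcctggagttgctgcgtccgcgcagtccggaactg
Top2a (chr11:99024140-99024439, minus strand): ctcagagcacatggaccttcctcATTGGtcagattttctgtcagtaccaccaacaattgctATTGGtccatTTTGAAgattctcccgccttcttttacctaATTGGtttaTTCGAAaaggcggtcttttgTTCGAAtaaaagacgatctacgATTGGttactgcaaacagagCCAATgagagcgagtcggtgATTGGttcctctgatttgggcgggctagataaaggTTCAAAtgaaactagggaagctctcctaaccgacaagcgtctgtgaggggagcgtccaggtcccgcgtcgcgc
Mki67 (chr7:135716330-135716629, minus strand): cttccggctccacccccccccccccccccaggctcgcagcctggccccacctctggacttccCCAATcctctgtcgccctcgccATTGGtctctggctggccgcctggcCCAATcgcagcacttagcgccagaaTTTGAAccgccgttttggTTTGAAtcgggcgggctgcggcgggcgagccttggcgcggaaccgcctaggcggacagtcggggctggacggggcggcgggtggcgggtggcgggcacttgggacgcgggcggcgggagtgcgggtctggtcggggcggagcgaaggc
Cenpf (chr1:189688037-189688336, minus strand): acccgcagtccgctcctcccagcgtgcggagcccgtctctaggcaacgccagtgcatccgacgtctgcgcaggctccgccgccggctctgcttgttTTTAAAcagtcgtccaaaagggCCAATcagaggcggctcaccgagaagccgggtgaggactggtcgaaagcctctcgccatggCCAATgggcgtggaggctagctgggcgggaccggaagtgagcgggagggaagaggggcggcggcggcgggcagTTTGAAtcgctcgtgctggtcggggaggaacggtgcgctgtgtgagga
In the Ccnb1 promoter a single TTTAAA lies 42 bases before the RefSeq start, downstream of CCAAT at 99 and 67 bases before it. The RefSeq start of Ccnb1 itself lies 84 bases downstream of the M21 gene start. The Cdk1 promoter holds TTTGAA at 71 and 15 bases before the start and 3 CCAAT letters, and the Top2a promoter holds 4 CHR matches and 6 of CCAAT. Cenpf, which was lower after infarction, has 2 CHR matches and 2 of CCAAT, as many as Cenpa. Pttg1, also lower, has 0 of either, and its RefSeq start lies 270 bases downstream of the M21 gene start. CHR letters and CCAAT were both absent from 7 of the windows, that of Pttg1 included. Of these 7, 3 (Nuf2, Nusap1 and Ncaph) started within 50 bases of the M21 gene start.

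**Figure D3:**
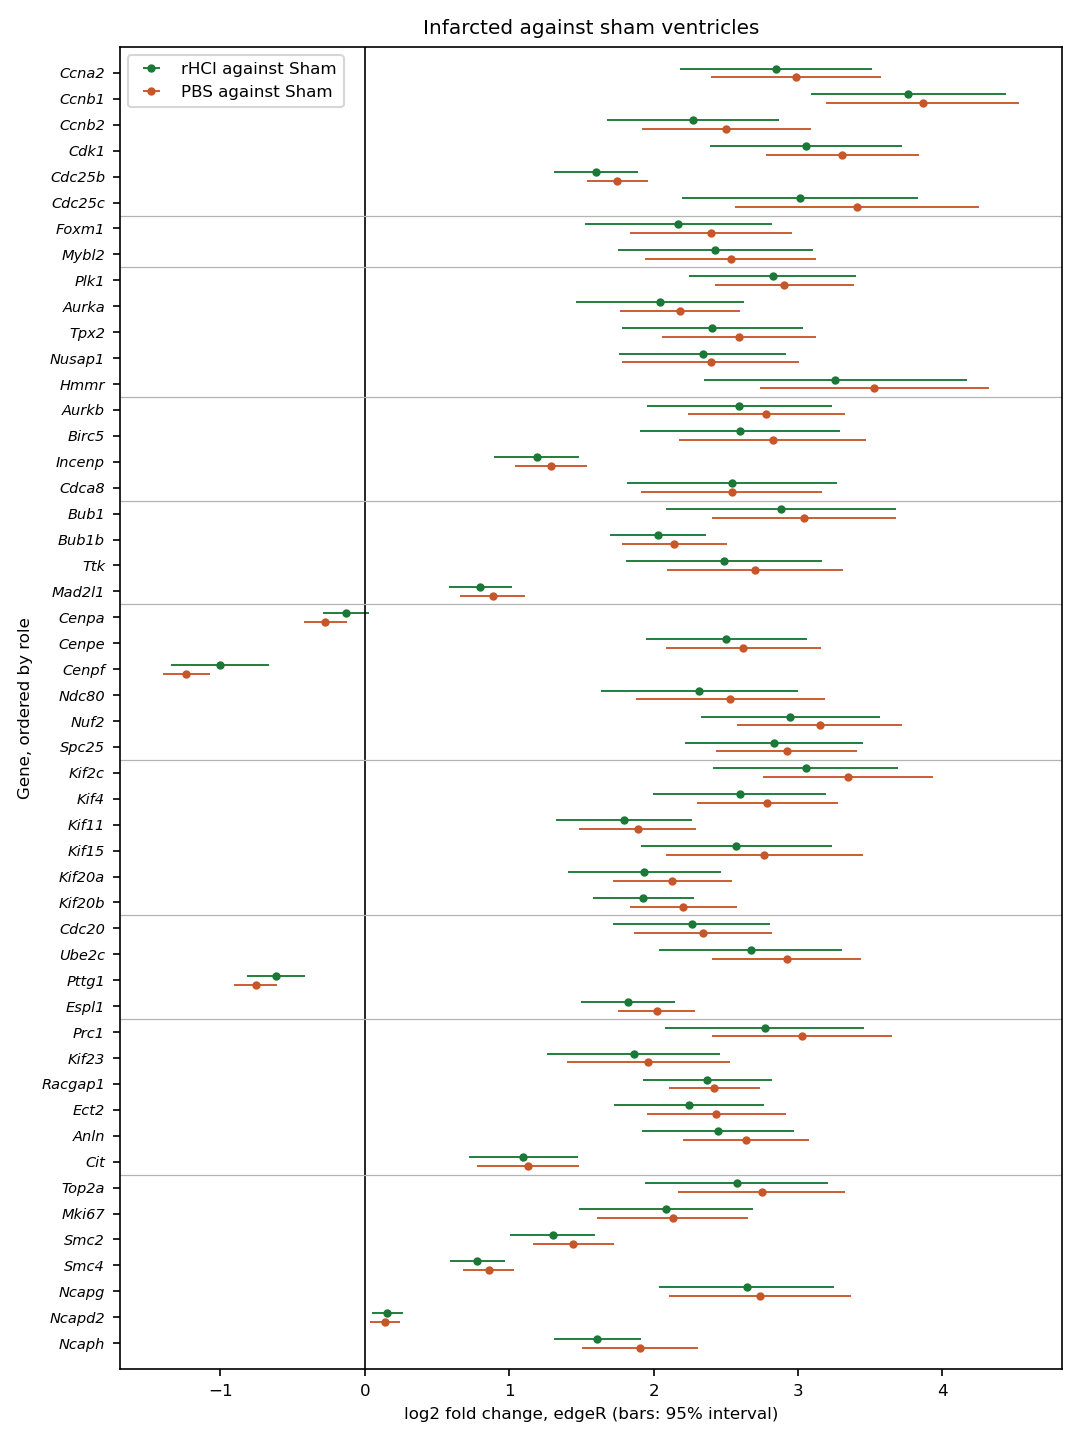
Log2 fold change with its 95% interval for each gene (down the page, ordered by role) in rHCI against Sham (green) and PBS against Sham (orange); both use the same 5 Sham libraries. The points run from about -1 or lower for Cenpf to above 3 in both for Ccnb1, Hmmr, Cdk1, Cdc25c and Kif2c, with Cenpa and Ncapd2 next to 0.

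All 6 genes of the mitotic switch were higher in PBS hearts, with a median log2 fold change of 3.15. Beside Ccnb1 and Cdk1 these were Ccna2, the cyclin of S phase and G2 (2.99 ± 0.27), the second B-type cyclin Ccnb2 (2.50 ± 0.27), and Cdc25c (3.41 ± 0.39) and Cdc25b, phosphatases that remove the inhibitory phosphates from Cdk1. Cdc25c was the scarcest of the 50 genes, at 0.642 ± 0.16 CPM in rHCI hearts, 0.85 ± 0.232 CPM in PBS hearts and 0.085 ± 0.0496 CPM in Sham hearts (SD, n = 5 each). Cdc25b had 9.7, 13, 11.3, 9.27 and 8.35 CPM in rHCI libraries, 12.2, 11.5, 11.2, 12.6 and 10.2 CPM in PBS libraries, and 3.84, 3.1, 4.07, 3.04 and 3.08 CPM in Sham libraries. It rose least in this role, 3.36-fold, yet with the lowest adjusted p of the 50 genes (7.28e-09, edgeR).

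The pair of transcription regulators that switch on G2 and M genes were both higher. Foxm1, a forkhead factor, had 5.22, 8.01, 6.66, 4.81 and 3.17 CPM in rHCI libraries, 7.89, 5.01, 6.66, 8.45 and 4.91 CPM in PBS libraries, and 1.46, 1.14, 2.02, 1.08 and 0.61 CPM in Sham libraries. Mybl2, the B-Myb subunit of the activating complex, had 1.19, 1.57, 1.48, 1.35 and 0.664 CPM in rHCI libraries, 1.27, 1.02, 1.48, 1.82 and 1.2 CPM in PBS libraries, and 0.271, 0.327, 0.323, 0.137 and 0.136 CPM in Sham libraries. Neither overlapped between PBS and Sham, and the log2 fold changes were 2.40 ± 0.26 for Foxm1 and 2.53 ± 0.27 for Mybl2.

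Spindle assembly genes moved together, 5 of 5 higher with a median log2 fold change of 2.59. Hmmr, which holds spindle poles together and is also a hyaluronan receptor, had 4.5, 7.62, 5.81, 4.35 and 2.67 CPM in rHCI libraries, 5.59, 4.14, 6.94, 8.09 and 5.36 CPM in PBS libraries, and 0.623, 0.633, 0.932, 0.451 and 0.0904 CPM in Sham libraries. The ratio of 10.3 between its highest and lowest Sham library was the widest of the 47 genes that rose. That ratio rests on Sham 20, and the lowest count of Hmmr in any library was 8. By the SD as a share of the mean, Cdc25c was wider among Sham hearts (58.4% against 56.4%). Every infarcted library was above all Sham libraries for Hmmr (3.53 ± 0.37 on the log2 scale, adjusted p 1.53e-06, edgeR). Aurka, the kinase that matures centrosomes, had 3.03, 4.24, 3.73, 2.86 and 1.42 CPM in rHCI libraries, 2.93, 2.5, 4.01, 4.31 and 3.23 CPM in PBS libraries, and 0.69, 0.551, 0.932, 0.942 and 0.644 CPM in Sham libraries. It rose least of these genes (2.18 ± 0.19), with its activator Tpx2 at 2.59 ± 0.25, the Polo kinase gene Plk1 at 2.91 ± 0.22, and the microtubule bundler Nusap1 at 2.39 ± 0.28.

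Members of one complex differed in how far they moved. In the chromosomal passenger complex, which corrects faulty attachments of microtubules to chromosomes, the kinase gene Aurkb had 2.37, 4.07, 3.45, 2.26 and 2.03 CPM in rHCI libraries, 3.42, 2.42, 3.81, 3.78 and 2.85 CPM in PBS libraries, and 0.46, 0.612, 0.723, 0.412 and 0.226 CPM in Sham libraries. Birc5, which encodes survivin, had 2.84, 3.92, 3.01, 2.66 and 1.86 CPM in rHCI libraries, 3.39, 2.36, 3.78, 4.32 and 3.02 CPM in PBS libraries, and 0.569, 0.51, 0.799, 0.392 and 0.169 CPM in Sham libraries. Both rose without overlap, by 2.78 ± 0.25 and 2.83 ± 0.30 on the log2 scale, and borealin (Cdca8) rose by 2.54 ± 0.29. Incenp, the scaffold that binds the kinase, had 8.51, 12.8, 11.3, 10.5 and 7.84 CPM in rHCI libraries, 11.8, 9.85, 11.4, 13.1 and 8.91 CPM in PBS libraries, and 4.78, 4.51, 3.96, 5.26 and 4.03 CPM in Sham libraries. It too rose without overlap but by 1.29 ± 0.11, with a 95% interval of 1.04 to 1.54 that lies below the interval of each other gene of the complex, of which the lowest bound was 1.92.

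Among spindle checkpoint genes, which hold back anaphase until every chromosome is attached, the kinase gene Bub1 had 2.52, 4.62, 2.71, 2.23 and 1.38 CPM in rHCI libraries, 2.93, 2.25, 3.74, 3.97 and 2.25 CPM in PBS libraries, and 0.338, 0.449, 0.628, 0.314 and 0.169 CPM in Sham libraries. Mad2l1, which encodes the Mad2 protein that inhibits Cdc20, had 7.3, 8.91, 8.22, 6.59 and 6.4 CPM in rHCI libraries, 8.14, 6.33, 8.47, 9.74 and 7.46 CPM in PBS libraries, and 4.18, 4.23, 4.51, 4.28 and 4.46 CPM in Sham libraries. Both rose without overlap, Bub1 8.25-fold and Mad2l1 1.85-fold. The 5 Sham values of Mad2l1 lay within a ratio of 1.08, the tightest Sham spread of the 47 genes that rose. Bub1b (BubR1) and the kinase gene Ttk rose by 2.14 ± 0.17 and 2.70 ± 0.28 on the log2 scale.

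The centromere and kinetochore genes went both ways. Nuf2, a subunit of the Ndc80 complex that grips microtubules, had 2.97, 5.36, 3.88, 3.02 and 2.03 CPM in rHCI libraries, 4.2, 2.51, 4.76, 5.47 and 3.1 CPM in PBS libraries, and 0.501, 0.51, 0.495, 0.549 and 0.248 CPM in Sham libraries. It rose by 3.15 ± 0.27, and the other subunits measured did likewise (Spc25 2.92 ± 0.22, Ndc80 2.53 ± 0.30), as did the kinetochore motor Cenpe (2.62 ± 0.25). Cenpf, a large coiled-coil protein of the outer kinetochore, had 24.1, 16.8, 23.7, 35.9 and 30.8 CPM in rHCI libraries, 22.4, 23.6, 22.4, 19 and 25.2 CPM in PBS libraries, and 58.6, 55.6, 53.6, 48.3 and 48.7 CPM in Sham libraries. All infarcted libraries were below all Sham libraries, and the level in PBS hearts was 0.425 of that in Sham hearts (-1.24 ± 0.076 on the log2 scale, adjusted p 1.76e-08, edgeR). Cenpa, the histone H3 variant that marks centromeres, had 33.8, 32.4, 34.5, 29.6 and 31.7 CPM in rHCI libraries, 27.3, 32.2, 28.5, 29.3 and 30.5 CPM in PBS libraries, and 36.5, 35.4, 36.2, 30.0 and 40.5 CPM in Sham libraries. PBS and Sham overlapped for Cenpa, as Sham 19 lay below PBS 6 and PBS 14. Its log2 fold change of -0.27 ± 0.069 passed (adjusted p 0.00295, edgeR), but with library totals in place of TMM factors the value was -0.0002 (adjusted p 0.998).

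All 6 mitotic kinesins were higher, with a median log2 fold change of 2.49. Kif2c, which takes microtubules apart at centromeres, had 1.82, 2.82, 2.6, 2.14 and 1.27 CPM in rHCI libraries, 2.96, 2.06, 3.16, 3.21 and 1.83 CPM in PBS libraries, and 0.366, 0.122, 0.285, 0.314 and 0.192 CPM in Sham libraries. Kif11, the motor that pushes spindle poles apart, had 5.83, 9.93, 8.04, 6.66 and 4.43 CPM in rHCI libraries, 6.94, 5.64, 9.33, 9.59 and 6.13 CPM in PBS libraries, and 2.25, 2.06, 2.59, 1.94 and 1.38 CPM in Sham libraries. PBS hearts stood 10.2-fold above Sham hearts for Kif2c and 3.71-fold for Kif11, the largest and smallest rises among the kinesins. The others were the chromosome-arm motor Kif4 (2.79 ± 0.23), the spindle motor Kif15 (2.77 ± 0.31), and Kif20a and Kif20b (2.13 ± 0.19 and 2.20 ± 0.17), which act in the central spindle and at the midbody.

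The 4 genes of anaphase also split. Ube2c, the ubiquitin-conjugating enzyme of the anaphase-promoting complex, had 4.01, 7.72, 6.07, 4.64 and 2.69 CPM in rHCI libraries, 5.56, 3.88, 7.5, 7.71 and 5.4 CPM in PBS libraries, and 0.785, 0.694, 1.22, 0.824 and 0.508 CPM in Sham libraries. It rose 7.57-fold. Cdc20, an activator of the anaphase-promoting complex, rose by 2.34 ± 0.22 on the log2 scale. Separase, the protease that cuts cohesin (Espl1), rose by 2.02 ± 0.12 on that scale. Pttg1, which encodes securin, the inhibitor that holds separase until anaphase, had 44.2, 32.1, 41.0, 44.7 and 49.8 CPM in rHCI libraries, 36.6, 41.9, 37.6, 33.3 and 44.5 CPM in PBS libraries, and 64.3, 63.5, 64.0, 65.4 and 69.7 CPM in Sham libraries. Every infarcted library lay below every Sham library, and a log2 fold change of -0.76 ± 0.068 put PBS hearts at 0.592 of the Sham level (adjusted p 5.28e-07, edgeR). The mRNAs of securin and separase, whose proteins are partners in one complex, changed in opposite directions. Their 95% intervals were -0.90 to -0.61 and 1.76 to 2.29, and protein was not measured.

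All 6 genes of the central spindle and cytokinesis were higher. Prc1, which bundles the microtubules of the central spindle, had 8.47, 15.6, 12.8, 10.2 and 6.27 CPM in rHCI libraries, 12.3, 8.49, 14.3, 18.2 and 10.7 CPM in PBS libraries, and 1.85, 1.69, 2.32, 1.59 and 0.576 CPM in Sham libraries. Cit, the citron kinase of the midbody, had 3.95, 5.8, 4.36, 4.79 and 3.49 CPM in rHCI libraries, 4.77, 3.62, 5.24, 5.48 and 4.01 CPM in PBS libraries, and 2.22, 2.35, 2.53, 2.12 and 1.41 CPM in Sham libraries. Both were without overlap, and the log2 fold changes of 3.03 ± 0.29 and 1.13 ± 0.16 were the ends of the range in this role. Between them were the centralspindlin pair Racgap1 (2.42 ± 0.15) and Kif23 (1.96 ± 0.26), the cleavage furrow gene Ect2 (2.44 ± 0.22) and anillin (Anln, 2.64 ± 0.20), a scaffold of the contractile ring. The median of this role was 2.43, beside 2.52 over all 50 genes.

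Within condensin, the ring complex that compacts mitotic chromosomes, the 5 subunits ranged widely. Ncapg rose by 2.74 ± 0.29, Ncaph by 1.90 ± 0.19, Smc2 by 1.44 ± 0.13 and Smc4 by 0.86 ± 0.081 on the log2 scale. Ncapd2 had 24.0, 26.5, 24.7, 27.4 and 26.2 CPM in rHCI libraries, 27.5, 24.3, 25.4, 25.3 and 26.4 CPM in PBS libraries, and 24.7, 22.6, 23.3, 22.9 and 23.1 CPM in Sham libraries. Its PBS and Sham values overlapped, and its rise of 0.14 ± 0.049, 1.1-fold, was the weakest of the 50 to pass (adjusted p 0.0192, edgeR); without PBS 2 it did not pass (adjusted p 0.0525).

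Levels of different genes were compared per length, as CPM per kb of exons in the GENCODE M21 annotation. The length joined the exons of all annotated transcripts of a gene, so order and shares may differ with the transcripts expressed. In Sham hearts the order began with Pttg1 at 32.7 ± 1.26 CPM per kb (SD, n = 5), then Cenpa at 6.10 ± 0.641, Smc4 at 5.15 ± 0.427, Ncapd2 at 3.72 ± 0.133 and Cenpf at 3.43 ± 0.289. Among these neighbours, Pttg1 stood clear, while Cenpa and Smc4, and also Ncapd2 and Cenpf, lay within their summed SDs of each other. Incenp followed at 1.04 ± 0.125 CPM per kb, and Cdc25c closed the order at 0.0173 ± 0.0101. The 5 genes with the highest Sham level per length were also the 5 with the lowest log2 fold change in PBS against Sham, between -1.24 and 0.86; both measures use the same Sham libraries, so this is a description. Pttg1, Cenpa and Cenpf made up 20.7% to 41.6% of the summed level per length of the 50 genes in rHCI libraries, 20.3% to 33.3% in PBS libraries and 62.9% to 72.5% in Sham libraries. The sum over the other 47 genes was 45.4 to 87.0 CPM per kb in rHCI libraries, 56.1 to 89.8 in PBS libraries and 17.1 to 24.6 in Sham libraries. In Sham hearts 24 of the 50 genes had a mean under 1 CPM, against 1 gene in rHCI hearts and 1 in PBS hearts, Cdc25c in both.

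Whether the hydrogel altered the mitotic genes of an infarcted ventricle was asked by setting rHCI hearts against PBS hearts. None of the 50 genes passed, with adjusted p of 0.871 to 0.998 (quasi-likelihood test of edgeR, adjusted over 16383 genes), and 0 of all genes tested passed either, 0.0%. At an unadjusted p under 0.05 by edgeR there were 579 genes, which is 3.53% of those tested, and among the 50 only Cenpa. DESeq2 and limma-voom with quality weights also passed 0 of the 50 genes, and 6 and 3 of all genes; at an unadjusted p under 0.05 they had 1 and 3 of the 50. For none of the 50 genes were the groups without overlap, against 0.531% of all genes.

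The size of a difference that these libraries allow was given by the 95% intervals. All 50 intervals of the log2 fold change lay between -0.92 and 0.58, that is between 0.528 and 1.5 of the PBS level, and 49 of them held 0. Mki67 stood at -0.052 ± 0.21 with an interval of -0.50 to 0.40, and Top2a at -0.18 ± 0.23 with -0.68 to 0.33. For Ccnb1 the value was -0.10 ± 0.24 with an interval of -0.63 to 0.42, and for Cdk1 -0.26 ± 0.25 with -0.80 to 0.29. A difference of 2-fold in either direction was thus outside the interval of every one of the 50 genes, and a difference of 0.5 on the log2 scale was outside the interval of 11 of them. The interval of Cenpa, 0.012 to 0.26, was the one without 0.

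**Figure D4:**
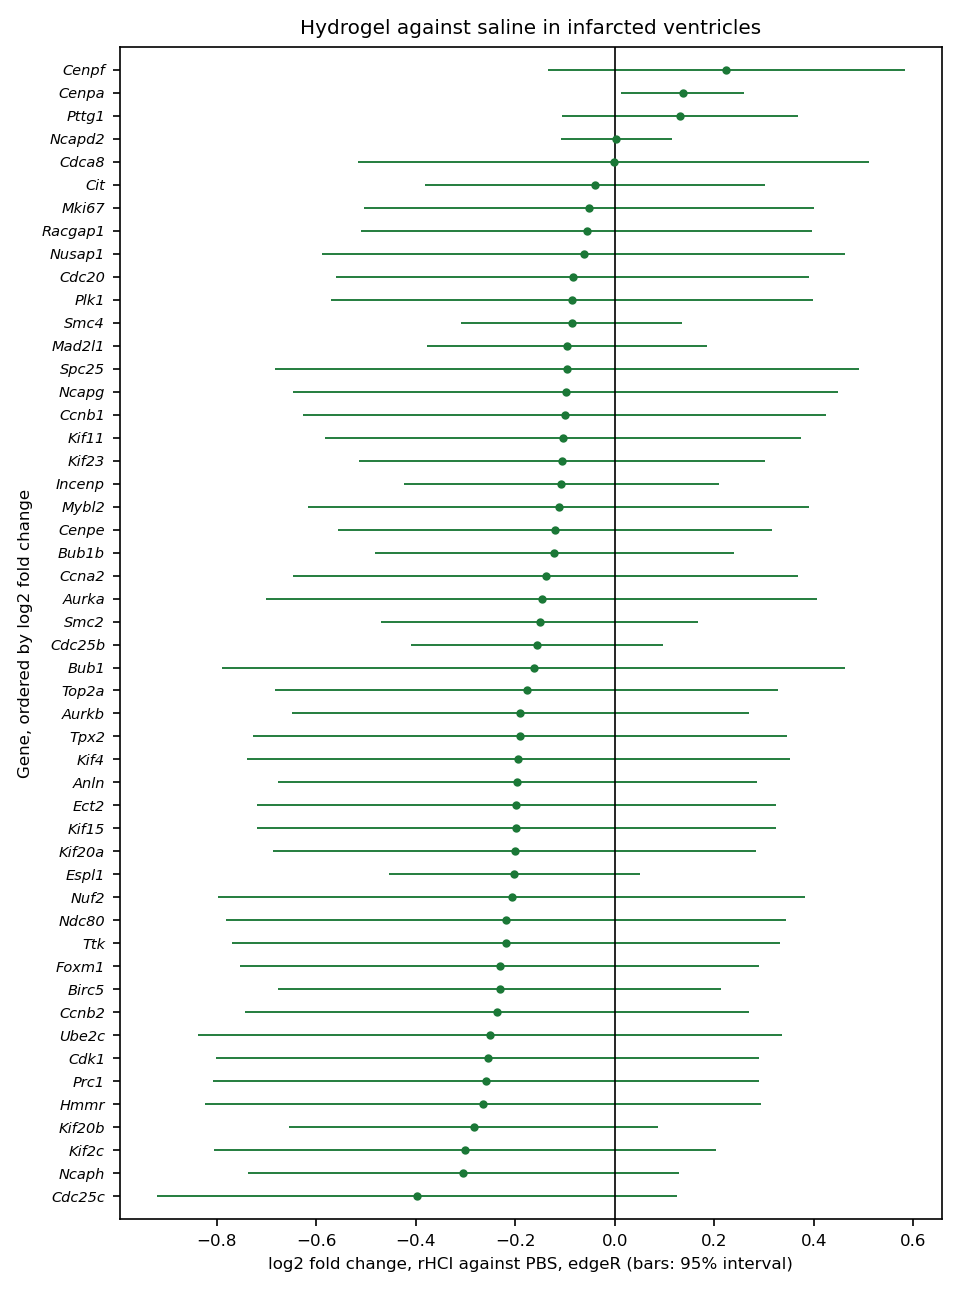
Log2 fold change of rHCI against PBS with its 95% interval for each of the 50 genes, ordered by value. Cdc25c is lowest at -0.40 and Cenpf highest at 0.22, and 46 points lie left of 0 with intervals that cross it, as all intervals do but that of Cenpa.

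In 46 of the 50 genes the estimate for rHCI against PBS was below 0, with a median of -0.15, whereas 49.6% of all genes tested were below 0. The 4 exceptions were Cenpf (0.22 ± 0.16), Cenpa (0.14 ± 0.056), Pttg1 (0.13 ± 0.11) and Ncapd2 (0.0027 ± 0.051), of which the first 3 were the genes that fell in PBS against Sham. Both comparisons use the same PBS libraries, with opposite sign, so this match is no separate evidence. Genes of this list varied together from heart to heart. The count moved with single hearts. Without rHCI 13 it was 33 of 50 with a median of -0.041, without PBS 12 it was 35 with a median of -0.045, without rHCI 3 it was 47 with a median of -0.31, and without PBS 6 it was 47 with a median of -0.23. Within the 8 libraries of the shared run it was 46 with a median of -0.21. By role the medians lay between -0.20 for the kinesins and the mitotic switch and -0.099 for chromosome condensation.

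Hydrogel-injected hearts were also set against Sham hearts. Of the 50 genes 49 passed, 47 higher and 2 lower in rHCI hearts, against 63.9% of 16076 genes tested by edgeR, 34.1% higher and 29.7% lower. The median log2 fold change was 2.36, against 0.002 over all genes tested. A rise of more than 2-fold was found for 44 of the 50 genes and for 14.4% of all genes, and of more than 4-fold for 34 of the 50 and 5.27% of all. The groups did not overlap for 48 of the 50 genes, against 49.4% of all genes. Since both comparisons use the same Sham libraries, their likeness is no separate evidence.

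Gene by gene, Ccnb1 again had the largest rise, 3.77 ± 0.31 beside 3.86 ± 0.31 in PBS against Sham. Mki67 rose by 2.08 ± 0.28 and 2.13 ± 0.24, Top2a by 2.57 ± 0.29 and 2.75 ± 0.27, and Aurkb by 2.59 ± 0.29 and 2.78 ± 0.25, with rHCI against Sham given before PBS against Sham. Foxm1 stood at 2.17 ± 0.30 beside 2.40 ± 0.26. The 2 genes lower in rHCI hearts were Cenpf (-1.0 ± 0.16, adjusted p 0.000157, edgeR) and Pttg1 (-0.61 ± 0.092, adjusted p 0.000106). Cenpa had a log2 fold change of -0.13 ± 0.073 and did not pass (adjusted p 0.14, edgeR); it passed without Sham 19 (adjusted p 0.0209), and with library totals its value was 0.094 (adjusted p 0.328). Ncapd2 rose by 0.15 ± 0.05 (adjusted p 0.0157, edgeR).

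With library totals in place of TMM factors the median of all genes moved by over 0.1 on the log2 scale in both comparisons against Sham. That median was then 0.22 in rHCI against Sham, with 8011 genes passing higher and 2128 lower, and 0.27 in PBS against Sham, with 8938 higher and 2610 lower, while with TMM factors 5487 were higher and 4781 lower in rHCI against Sham, and 5921 higher and 5653 lower in PBS against Sham. The 50 genes had medians of 2.59 in rHCI against Sham and 2.80 in PBS against Sham with library totals. Under both scalings 47 passed higher in each comparison, and Cenpf and Pttg1 passed lower.

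Hearts of one group differed from each other in most of the 47 higher genes at once. In the rHCI group, rHCI 3 was the highest library for 45 of the 47 genes and rHCI 13 the lowest for 45. Relative to the mean of their own group, the median over the 47 genes was 0.54 in rHCI 3 and -0.60 in rHCI 13 on the log2 scale. In the PBS group, PBS 12 was highest for 44 genes, with a median of 0.40, and PBS 6 was lowest for 36 and PBS 14 for 11, with medians of -0.40 and -0.24. Among Sham hearts, Sham 18 was highest for 35 genes (median 0.54) and Sham 20 lowest for 38 (median -0.71). The ratio of the highest to the lowest library of a group had a median over the 47 genes of 2.24 in rHCI, 1.78 in PBS and 2.47 in Sham. Of the 3 remaining genes, Cenpf was lowest in rHCI 3 (16.8 CPM) and highest in rHCI 11 (35.9 CPM), and Pttg1 was lowest in rHCI 3 and highest in rHCI 13.

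**Figure D5:**
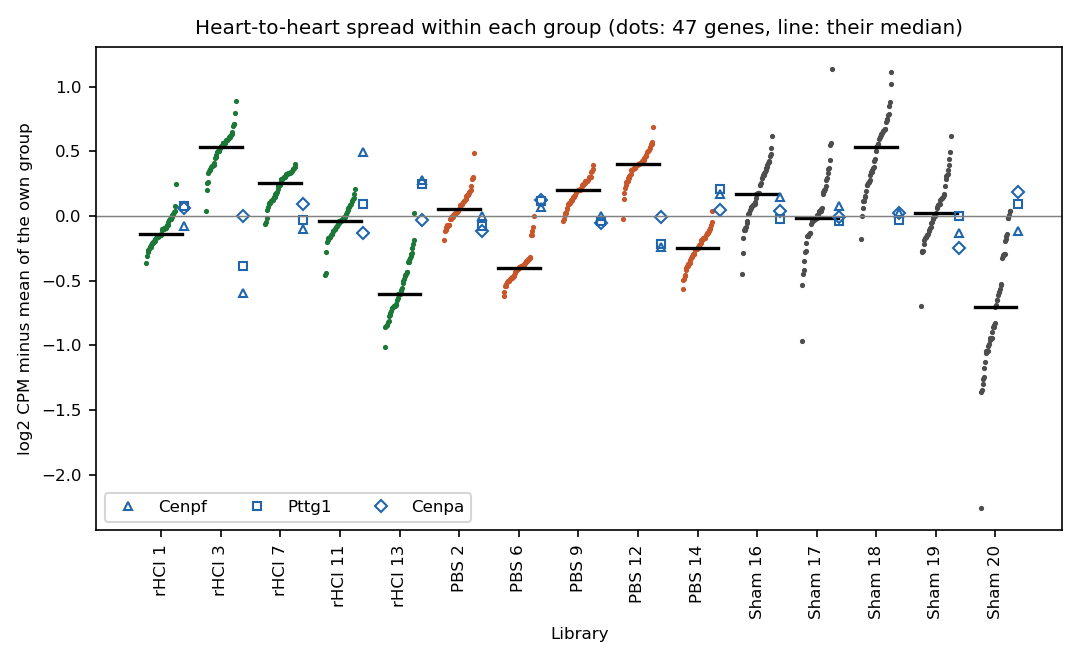
Log2 CPM of each library minus the mean of its own group, for the 47 genes that rose (dots, sorted within a library, with their median as a black line) and for Cenpf, Pttg1 and Cenpa (blue symbols). The medians reach 0.54 in rHCI 3 and -0.60 in rHCI 13, and Cenpf and Pttg1 lie on the opposite side of 0 in both.

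Among infarcted hearts, heart muscle markers, the mitochondrial share and, more loosely, fibroblast markers moved with this order at its ends. Not every list of markers did. Among the 10 infarcted libraries rHCI 13, lowest for 44 of the 47 genes, had the highest summed heart muscle markers (57500 CPM) and the lowest summed fibroblast markers (7060 CPM). PBS 12, highest for 32 of the 47 genes, had the lowest heart muscle sum (38000 CPM) with 11200 CPM of fibroblast markers, and rHCI 3, highest for 13, had 39400 and 11900 CPM. PBS 6 departed from this order, with 44700 CPM of heart muscle and 10700 CPM of fibroblast markers but low mitotic genes. Mitochondrially encoded genes took 9.77% of counts in rHCI 3 and 14.5% in rHCI 13. Summed macrophage markers were 346 CPM in rHCI 13, 409 CPM in PBS 12, 410 CPM in rHCI 3 and 382 CPM in PBS 6. They were lower still in PBS 14 (331 CPM) and rHCI 11 (334 CPM), and highest in PBS 2 (436 CPM). Summed endothelial markers were 903 CPM in rHCI 13, 1080 CPM in PBS 12 and 1130 CPM in rHCI 3. B and plasma cell markers ran the other way, at 18.8 CPM in rHCI 13, 11.3 CPM in PBS 12 and 5.73 CPM in rHCI 3. Neutrophil markers were at 20.7, 10.7 and 16.6 CPM in these libraries. Against Sham, all 7 fibroblast and all 7 macrophage markers were higher in rHCI and in PBS hearts, with median log2 fold changes of 1.69 and 1.95 in rHCI hearts and 2.06 and 1.92 in PBS hearts, and 7 of 8 heart muscle markers were lower in both, at medians of -0.59 and -0.76. Neutrophil markers were higher in 5 of 5 genes in both, at medians of 3.01 in rHCI hearts and 2.77 in PBS hearts. Markers of activated fibroblasts were higher in 5 of 6 genes in both, at medians of 3.70 in rHCI hearts and 4.01 in PBS hearts. T and NK cell markers were higher in 6 of 7 genes in rHCI hearts (median 0.91) and in 7 of 7 in PBS hearts (median 1.14). B and plasma cell markers were higher in 4 of 5 in both (medians 1.05 and 1.13). Endothelial markers were higher in 2 and lower in 1 of 7 genes in rHCI hearts, and higher in 4 and lower in 1 in PBS hearts. Of 6 smooth muscle and pericyte markers, 2 were higher and 2 lower in rHCI hearts, and 2 higher and 3 lower in PBS hearts. Of 5 erythroid markers tested, 0 passed in either comparison. Over all genes tested 34.1% were higher in rHCI hearts and 36.5% in PBS hearts, with 29.7% and 34.9% lower. Among Sham hearts the heart muscle sum was 72100 CPM in Sham 18 and 72200 CPM in Sham 20, with fibroblast markers at 1100 and 919 CPM. The part of cell composition and of the mitochondrial share in the mitotic gene values was not tested.

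Further genes of the same processes were counted by lists of function. Of 35 other kinetochore and checkpoint genes, 25 were higher and 4 lower in PBS hearts by edgeR, with a median log2 fold change of 1.16. The spindle- and kinetochore-associated gene Ska1 rose by 3.94 ± 0.43, the centromere gene Cenpi by 2.92 ± 0.28 and Spdl1, which recruits dynein to kinetochores, by 2.91 ± 0.27. Lower were Sgo2a, a shugoshin that guards centromeric cohesion (-0.63 ± 0.14), and Ska2 (-0.37 ± 0.075), which acts in one complex with Ska1. Of 36 other spindle and kinesin genes, 28 were higher and 6 lower, with a median of 1.93. Depdc1a rose by 3.76 ± 0.51, the spindle gene Fam83d by 3.45 ± 0.22 and Ckap2l by 3.21 ± 0.34, while the replication licensing inhibitor Gmnn (-0.59 ± 0.088) and the centrosome gene Nedd1 (-0.42 ± 0.051) were lower. Of 17 G2 and M phase kinases and phosphatases tested, 10 were higher and 4 lower, led by the centrosome kinase Nek2 (3.07 ± 0.35) and cyclin F (Ccnf, 2.95 ± 0.29).

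The 4 remaining lists lay near the shares over all genes tested in PBS against Sham, 36.5% higher and 34.9% lower. Of 19 subunits and regulators of the anaphase-promoting complex, 7 were higher and 8 lower with a median of -0.071, and those with the largest rises were the Cdk-binding proteins Cks2 (2.42 ± 0.21) and Cks1b (1.12 ± 0.12) and the inhibitor Fbxo5 (1.41 ± 0.16), whereas the subunits Anapc13 and Anapc16 were lower (-0.60 ± 0.061 and -0.44 ± 0.056). Of 14 cohesin and condensin II genes 5 were higher and 4 lower, with Esco2 (3.20 ± 0.38) and Cdca5 (2.90 ± 0.37), which establish and protect cohesion in S phase, and Ncapg2 (1.49 ± 0.12) at the top and Ncaph2 (-0.26 ± 0.038) at the bottom. Of 12 genes of DREAM and its activating counterpart 5 were higher and 3 lower, among them the pocket protein Rbl1 at 1.37 ± 0.14 and the E2F partner Tfdp2 at -0.63 ± 0.11. Of 18 genes of abscission, the last cut between daughters, 8 were higher and 5 lower, from Sept11 at 1.26 ± 0.084 to the ESCRT gene Chmp4c at -0.42 ± 0.045. In rHCI against Sham the shares over all genes tested were 34.1% higher and 29.7% lower. The counts higher and lower there were 25 and 3 of the kinetochore genes and 28 and 5 of the spindle genes. They were 9 and 3 of the G2 and M kinases and phosphatases, and 7 and 7 for the anaphase-promoting complex. Cohesin and condensin II had 5 and 1, DREAM 4 and 2, and abscission 8 and 5. In rHCI against PBS none of the genes on these 7 lists passed by edgeR, DESeq2 or limma-voom; at an unadjusted p under 0.05 there were 0 by edgeR, 0 by DESeq2 and 2 by limma-voom, both on the kinetochore list.

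Reads of overlapping genes may limit some of these values. In GENCODE M21, 30 of the 50 genes overlap another annotated gene, 14 of them one on the same strand. Whole gene spans were compared, introns included, so overlap of exons and its effect on the counts were not tested. The strand setting of the authors' counting is not given in the sources used here. Ube2c overlaps Tnnc2, a troponin C gene, Kif20a overlaps Cdc23 and Cdc20 overlaps Elovl1, all on the other strand. Genes with an overlap on the same strand include Foxm1 (Gm44596 and Tex52), Ncapd2 (Gm28967 and Scarna10), Top2a and Incenp. Ccnb1, Cdk1, Aurkb, Pttg1 and Cenpa overlap none. Positions of the genes named most were, on GRCm38, chromosome 13 from 100778650 to 100786570 for Ccnb1 (ENSMUSG00000041431), chromosome 10 from 69335146 to 69352938 for Cdk1 (ENSMUSG00000019942), chromosome 1 from 189640606 to 189688086 for Cenpf (ENSMUSG00000026605), chromosome 11 from 43420250 to 43426251 for Pttg1 (ENSMUSG00000020415), and chromosome 5 from 30666777 to 30674830 for Cenpa (ENSMUSG00000029177).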

How the data were processed

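Left ventricle mRNA was sequenced from stranded libraries, per the labels' protocols. The authors deposited raw read counts per gene, whole numbers with differing totals, for 15 libraries, and every column was matched to a sample. Tools named in the submitters' processing notes are Trimmomatic, STAR, Cufflinks and edgeR, and builds GRCm38 and mm10, with no role stated. How reads were counted, with which strand setting and annotation release, is not given in the sources used here.

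Groups came from sample titles. The numbers in the titles were read as animal numbers. Should some libraries share an animal, the p-values cover only the spread between libraries. No 2 libraries of a group agreed within sampling noise (chi-square of counts, lowest value 10.7 per gene over 30 pairs). Totals of 32978702 to 103356830 counts set the counting error.

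For each comparison the 10 libraries of both groups were fitted with edgeR 4.0.16 in R 4.3.3 (TMM, filterByExpr, glmQLFit, glmQLFTest, two-sided, Benjamini-Hochberg over all genes tested, threshold 0.05). The fit was also run on simulated data in which few genes changed, as many up as down. That run did not cover a comparison in which most genes differ, as in those against Sham. All 50 genes passed the filter on low counts in all comparisons. Standard errors and 95% intervals of log2 fold changes came from the fitted model. CPM used TMM factors from all 15 libraries. Exon lengths came from GENCODE M21, in which 46574 of 47069 identifiers were found. Promoters and their build, GRCm38.p6, came from RefSeq.

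The members, lists and tests were chosen with earlier results of these data known. Values in every library were given for Mki67, Top2a, Ccnb1, Cdk1, Aurkb and Foxm1, for the genes with the largest and smallest log2 fold change of PBS against Sham in each role, and for genes that did not pass or went the other way where most genes of a role passed. The promoter of Cenpf, and the overlapping genes named, were added after values were seen. Of other lists, up to 3 genes that passed with the largest change and up to 2 in the other direction were named. Alternatives were RLE factors, library totals, DESeq2 1.42.0, limma-voom with quality weights (limma 3.58.1), 2 other filters, 1 fit of all 15 libraries, the run number as covariate, the shared run alone, a minimum change of 1.2-fold (glmTreat), and leaving out each replicate.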

Additional observations from a re-analysis of the deposited data

Results flagged for a closer look

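In 3 of 150 gene-by-group sets of 5 libraries, 1 library stood apart by Dixon's test at the 95% level (a gap over 0.71 of the range). Chance alone gives about 1 in 20 such sets. Espl1 (separase) was at 5.91 CPM in rHCI 3, with the other rHCI libraries at 3.97 to 4.38 CPM. Nuf2 was at 0.248 CPM in Sham 20, with the other Sham libraries at 0.495 to 0.549 CPM. Kif20b was at 1.39 CPM in Sham 18, with the other Sham libraries at 0.921 to 1.02 CPM. These 3 libraries were also those that were highest or lowest of their group for most of the 47 genes that rose.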

How the results depend on the processing

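Of 2995 values of single genes recomputed under 20 alternatives per comparison, 2987 stayed on their side of the threshold. The 8 others belonged to Cenpa and Ncapd2. The sign changed in 41, none of them a value that passed: 40 in rHCI against PBS, 28 of these without rHCI 13 or without PBS 12, and Cenpa in rHCI against Sham with library totals (0.094). Ncapd2 did not pass with a minimum change of 1.2-fold (adjusted p 1 in rHCI against Sham and in PBS against Sham), without a filter on low counts in rHCI against Sham (adjusted p 0.0669), or without PBS 2 (adjusted p 0.0525). Cenpa did not pass in PBS against Sham with library totals or with a minimum change of 1.2-fold (adjusted p 0.333), and did pass in rHCI against Sham in the shared run alone (adjusted p 0.0277) and without Sham 19. With at least 1 CPM in 5 libraries required, 47 of the 50 genes were tested in rHCI against Sham and 49 in PBS against Sham.

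Leaving out each replicate, 49 to 50 of the 50 genes passed in rHCI against Sham, 49 to 50 in PBS against Sham and 0 to 0 in rHCI against PBS. Over all genes 9643 to 10606 passed in rHCI against Sham, 11147 to 11602 in PBS against Sham, and 0 to 3 in rHCI against PBS, where the 3 came without rHCI 13. In rHCI against PBS 6 genes passed with DESeq2 and 3 with limma-voom, none of them among the 50. In rHCI against Sham 6157 genes passed with a minimum change of 1.2-fold, against 10268 without it, because small changes are then not called; the causes of the other shifts were not tested. No paired analysis was possible because no title number occurs in more than 1 group. Low counts limit the precision of the scarcest genes, with 3 counts in the lowest library for Cdc25c, 6 for Kif2c and 8 for Hmmr.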

Other observations

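Most genes listed for the earlier cell cycle stages were higher in PBS hearts. Of 39 DNA replication genes tested, 28 were higher and 3 lower in PBS hearts than in Sham hearts by edgeR, against 36.5% higher and 34.9% lower over all genes, with a median log2 fold change of 0.71. Rrm2, a subunit of the enzyme that makes DNA building blocks, had 13 ± 6.06 CPM in rHCI hearts, 15.2 ± 4.46 CPM in PBS hearts and 2.49 ± 0.504 CPM in Sham hearts (SD, n = 5 each), a log2 fold change of 2.62 ± 0.21. Tyms, thymidylate synthase, rose by 2.36 ± 0.13 and Uhrf1, which maintains DNA methylation, by 2.19 ± 0.19, while Dut, which removes dUTP, and the polymerase subunit Pold2 were lower (-0.42 ± 0.064 and -0.42 ± 0.059). Of 11 G1 cyclins, kinases and activating E2F factors, 10 were higher and 0 lower, with E2f1 at 2.75 ± 0.19, E2f2 at 2.40 ± 0.24 and Ccne1, cyclin E1, at 1.55 ± 0.20; the D-type cyclin gene Ccnd3 did not pass (0.11 ± 0.052, adjusted p 0.0649).

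Of the 13 genes of cell cycle inhibitors 5 were higher and 4 lower in PBS hearts, near the shares over all genes. Cdkn1a, which encodes the p53 target p21, had 52.2 ± 20 CPM in rHCI hearts, 48.5 ± 10.9 CPM in PBS hearts and 104.0 ± 18.3 CPM in Sham hearts and fell by 1.09 on the log2 scale (SE 0.15, adjusted p 2.42e-05, edgeR), while Trp53 itself was higher (0.79 ± 0.068). The CDK4 inhibitor genes Cdkn2b and Cdkn2a rose by 3.31 ± 0.23 and 2.80 ± 0.29, with Cdkn2b at 2.55 ± 0.595 CPM in rHCI hearts, 3.33 ± 0.75 CPM in PBS hearts and 0.339 ± 0.0867 CPM in Sham hearts. In rHCI against Sham 5 inhibitor genes were likewise higher and 4 lower, against 34.1% higher and 29.7% lower over all genes. In rHCI against PBS 0 of the replication, G1 and inhibitor genes passed by edgeR, DESeq2 or limma-voom. At an unadjusted p under 0.05 there were 4 replication genes by edgeR, 4 by DESeq2 and 7 by limma-voom, and of the G1 and inhibitor genes 0 by edgeR, 0 by DESeq2 and 1 each by limma-voom.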
